A study of Rattus norvegicus with 11 samples.

Results

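Genes of glucose uptake and glycolysis were followed in rat alveolar epithelial cells: the glucose transporter Slc2a1 (GLUT1), the hexokinases Hk1 and Hk2, phosphofructokinase Pfkp, aldolase Aldoa, Tpi1, Gapdh, Pgk1, Pgam1 and Ldha. The 10 genes were named from glucose uptake to lactate, without every step between, and with earlier results of these data known. They were read through every probe set (a group of short probes for a transcript) that the platform annotation pairs with 1 of these genes and no other. That gave 24 of the 8799 probe sets and covered 8 of the 10 genes. Tpi1 and Ldha were each represented by 1 probe set annotated to several genes, so neither is described. Of the 24 probe sets, 15 belonged to 7 genes and were tested. The other 9 were array control probe sets, 6 of Gapdh and 3 of Hk1, and their values are given without a test.

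Total RNA from 3 groups of cells was measured on 11 arrays: 3 arrays of type II (TII) cells on day 7 of culture, 4 of freshly isolated type I (TI) cells and 4 of freshly isolated TII cells, the fresh cells labelled day 0. All cells were from Rattus norvegicus. Strain, age, isolation method, culture medium and any pooling of animals are not given in the sources used here. Nor is it stated that each array had its own animal, so p-values cover only array-to-array spread, which may be technical. TI cells are the flat cells of the alveolar surface, and TII cells are the cuboidal cells that make surfactant.

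Glycolysis carries glucose to pyruvate in the cytosol. GLUT1 brings glucose in, hexokinase traps it as glucose 6-phosphate, phosphofructokinase commits it to the pathway, aldolase splits the sugar, and glyceraldehyde 3-phosphate dehydrogenase, phosphoglycerate kinase and phosphoglycerate mutase work on the resulting trioses, with ATP made at the kinase step. Lactate dehydrogenase turns pyruvate into lactate when it is not oxidised in mitochondria. In the lung, TII cells spend energy on making and secreting surfactant, while TI cells form the thin barrier for gas exchange.

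The labels were set against defining markers. Podoplanin (Pdpn, a TI surface protein) lay between 9.20 and 9.47 (log2 signal) on cultured TII, 10.03 and 10.23 on fresh TI and 5.57 and 5.75 on fresh TII arrays. Surfactant protein C (Sftpc, made by TII cells) lay between 5.04 and 5.24 on cultured TII, 10.73 and 12.51 on fresh TI and 13.00 and 13.16 on fresh TII arrays. Fresh TI arrays thus also carried surfactant signal, with a wider range than the other groups. The leukocyte marker Ptprc (5.33 to 6.19 over all arrays) and the endothelial marker Pecam1 (4.59 to 5.02) were near the array medians, which lay between 5.43 and 5.51. Markers of other cells were brighter. The fibroblast collagen Col1a1 lay between 7.62 and 9.09 on cultured TII, 8.18 and 9.64 on fresh TI and 7.20 and 7.86 on fresh TII arrays. The airway secretoglobin Scgb1a1 lay between 8.06 and 8.63 on cultured TII, 7.415 and 7.89 on fresh TI and 10.84 and 11.15 on fresh TII arrays. Haemoglobin Hbb lay between 5.27 and 5.53 on cultured TII, 7.12 and 7.99 on fresh TI and 8.36 and 10.14 on fresh TII arrays. Correlation between arrays was at least 0.978 within a group and at most 0.947 between groups. On arrays of mixed isolates, fewer cells of a type and less RNA per cell cannot be told apart.

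Cultured TII cells were first set against fresh TII cells, which asks how transcript levels differed by day 7 of culture. Aldoa, Pgk1, Pgam1 and Pfkp rose, by 2.94-fold to 4.71-fold on the brightest probe set of each. Gapdh signal, which was not tested, was higher by about the same amount. Differences at the entry of the pathway were smaller, from 0.18 to 0.31 (log2) over the probe sets of Slc2a1 and Hk2, and Hk1 did not pass the test. Of 15 tested probe sets 10 were higher and 0 lower at an adjusted p under 0.05 (a call), against 19.1% of all 8740 probe sets higher, 14.3% lower and 33.4% in either direction. At least 2-fold higher were 8 of the 15, against 4.45% of all. The arrays of the groups did not overlap for 9 of the 15, against 43.3% of all. Taking the brightest probe set of each gene, 5 of 7 genes were higher and 0 lower (20.5% and 14.0% of all 4736 genes, 34.6% together), with a median log2 difference of 1.55 over the 7 and -0.005 over all genes.

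**Figure D1:**
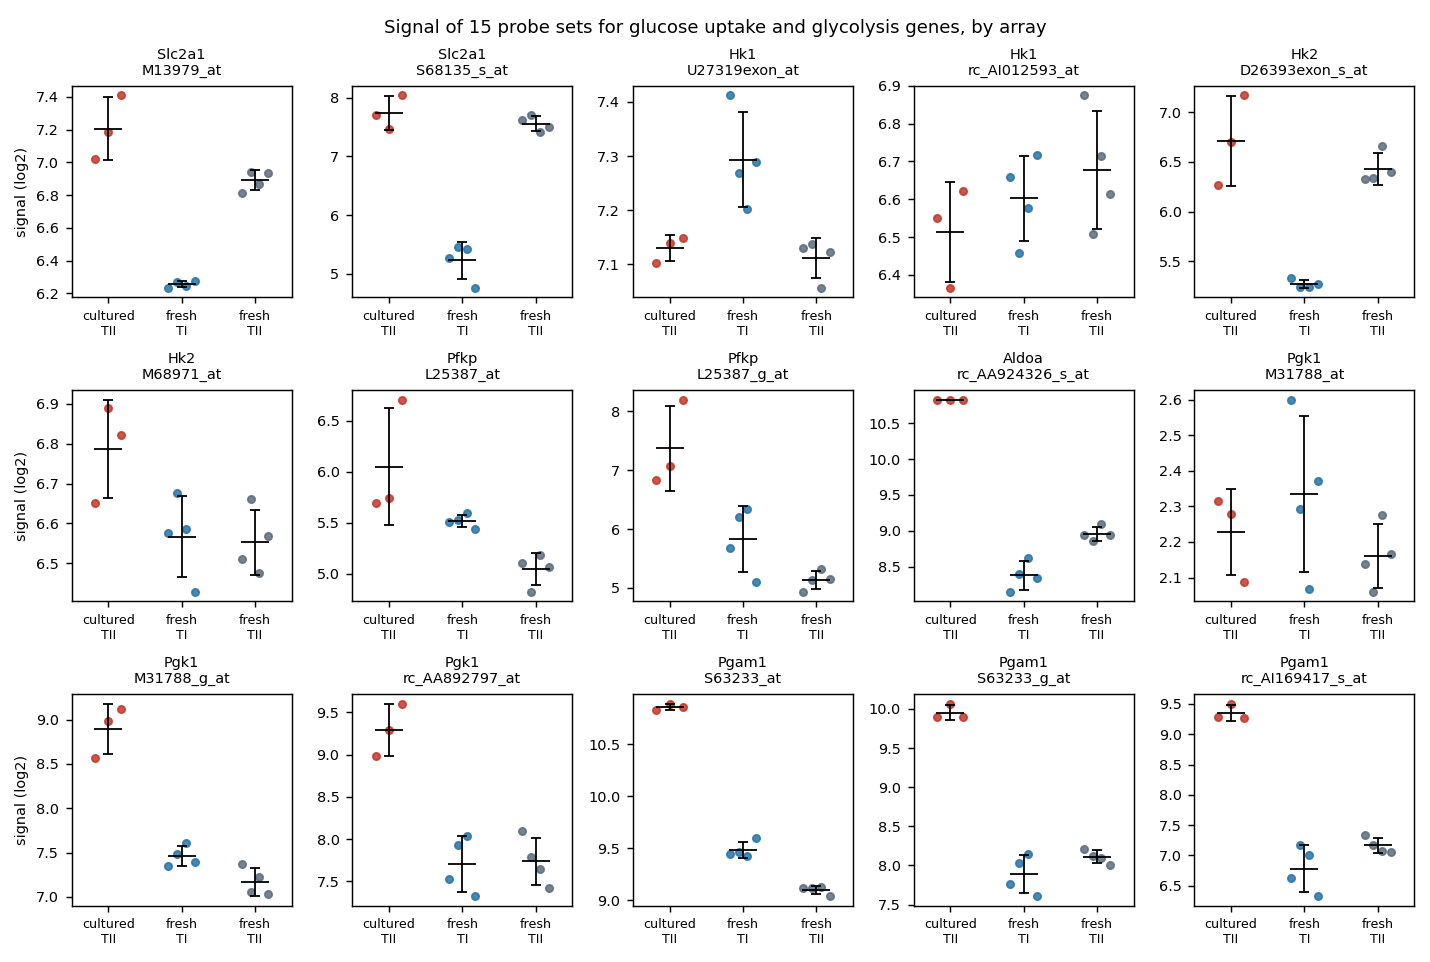
Log2 signal of the 15 tested probe sets on each array, with a panel and its own vertical scale for each probe set; points are arrays of cultured TII (3), fresh TI (4) and fresh TII cells (4), and bars are the mean and SD. Aldoa, Pgam1 and the brighter Pgk1 panels show the cultured arrays above all others, and both Slc2a1 panels show the fresh TI arrays below all others.

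Aldoa, the aldolase that splits fructose 1,6-bisphosphate, was nearly identical on the cultured arrays. Its signal was 10.83 on each of the 3 cultured TII arrays, 8.15, 8.40, 8.62 and 8.33 on the fresh TI arrays, and 8.94, 8.86, 9.09 and 8.94 on the fresh TII arrays. No array of 1 group reached the range of another, with cultured TII highest and fresh TI lowest. The increase in culture was 1.87 ± 0.10 (log2 difference, SE), a 3.66-fold higher signal than in fresh TII cells (adjusted p = 1.11e-08).

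Pgam1, the mutase that moves the phosphate of 3-phosphoglycerate, was measured by 3 probe sets. On S63233_at, the brightest, the signal was 10.82, 10.89 and 10.86 in cultured TII, 9.45, 9.46, 9.42 and 9.60 in fresh TI, and 9.12, 9.12, 9.12 and 9.04 in fresh TII cells. The cultured arrays stood clear of both fresh groups. The rise over fresh TII cells was 1.76 ± 0.07, or 3.38-fold (adjusted p = 5.32e-10), and S63233_g_at and rc_AI169417_s_at gave 1.84 ± 0.12 and 2.19 ± 0.17. All 3 probe sets thus rose in culture.

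Pgk1, the kinase that makes the first ATP of the pathway, was read by 3 probe sets of which M31788_at was dim, with a mean signal above only 3.0% of tested probe sets. On rc_AA892797_at the cultured TII arrays gave 8.98, 9.29 and 9.60, the fresh TI arrays 7.53, 7.93, 8.03 and 7.33, and the fresh TII arrays 8.09, 7.78, 7.65 and 7.42. Cultured arrays were above all fresh arrays, while the fresh groups overlapped. The rise over fresh TII was 1.55 ± 0.20, or 2.94-fold (adjusted p = 3.68e-05), and 1.72 ± 0.13 on M31788_g_at. The dim M31788_at gave 2.31, 2.28 and 2.09 in cultured TII and 2.06 to 2.28 in fresh TII cells, a difference of 0.07 ± 0.11 (adjusted p = 0.729).

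Pfkp, the platelet-type phosphofructokinase, rose with a wide spread. On L25387_g_at it gave 6.83, 7.07 and 8.20 in cultured TII, 5.68, 6.20, 6.34 and 5.10 in fresh TI, and 4.93, 5.13, 5.32 and 5.15 in fresh TII cells. Cultured replicate 3 was more than 1 log2 unit above the other cultured arrays, and all 3 were above every fresh TII array. The difference from fresh TII was 2.24 ± 0.32, or 4.71-fold (adjusted p = 0.0001), and 1.82 without cultured replicate 3. The second probe set, L25387_at, gave 5.70, 5.75 and 6.71 in cultured TII and 4.83 to 5.18 in fresh TII cells. Its difference was 1.004 ± 0.19 (adjusted p = 0.00113), and 0.68 without cultured replicate 3, which was still called.

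**Figure D2:**
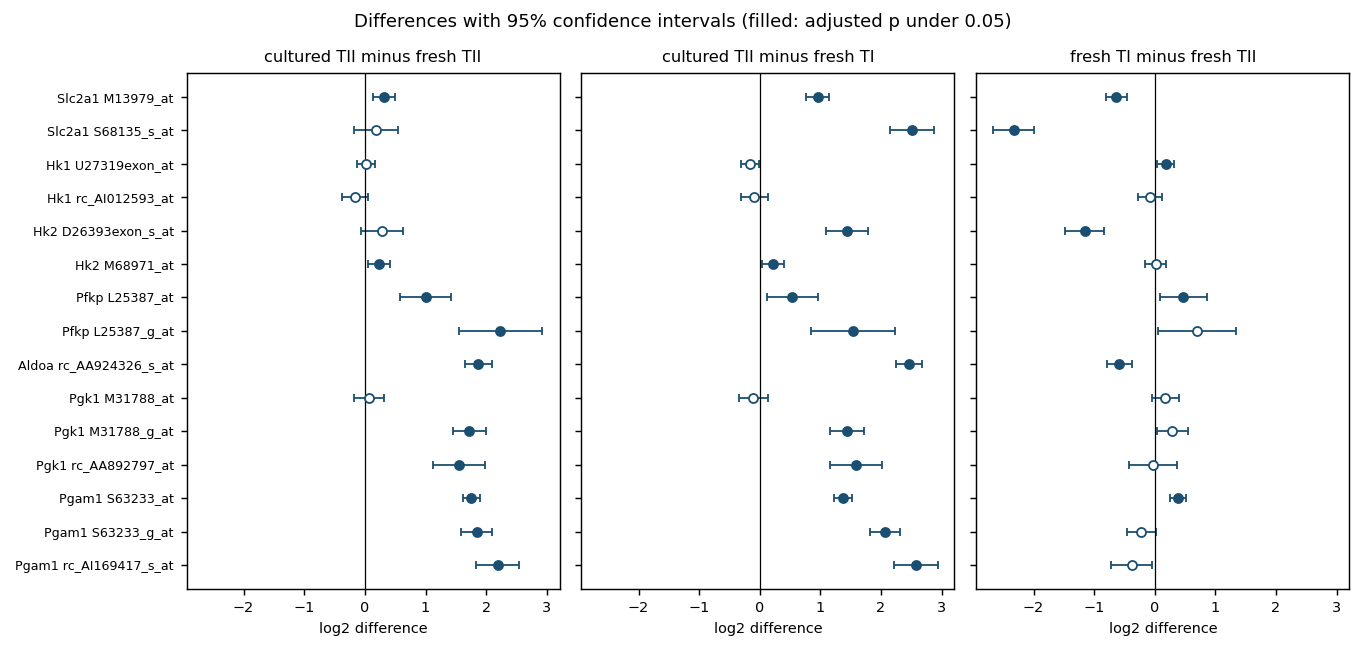
Log2 differences of the 15 tested probe sets in the 3 comparisons; points are model estimates, bars are 95% confidence intervals, and filled points have an adjusted p under 0.05. The left panel shows Pfkp, Aldoa, Pgam1 and 2 of 3 Pgk1 probe sets between 1.004 and 2.24 above fresh TII. The right panel shows Slc2a1 S68135_s_at at -2.33, the lowest of the 15 in fresh TI against fresh TII cells.

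Gapdh, the triose dehydrogenase often used as a reference gene, was present through array control probe sets placed at the 3′ end, middle and 5′ end of its transcript. The middle probe set gave 11.50, 11.79 and 11.79 in cultured TII, 9.69, 9.83, 9.999 and 9.72 in fresh TI, and 9.78, 9.65, 9.73 and 9.71 in fresh TII cells. All cultured arrays were above all fresh arrays, and the fresh groups overlapped. The 3′, middle and 5′ probe sets differed between cultured and fresh TII by 1.93, 1.98 and 2.06 (log2). The difference was of similar size along the transcript.

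The control probe sets of Gapdh with the suffix _st, designed in the opposite orientation, were dimmer. They differed between cultured and fresh TII by 0.19, 0.05 and 0.07 for the 3′, middle and 5′ positions, and the arrays of these groups overlapped for all 3. Between fresh TI and fresh TII they differed by 0.79, 0.62 and 0.45 with no overlap, and the other 3 Gapdh control probe sets differed by 0.19, 0.09 and 0.16 with overlap.

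**Figure D3:**
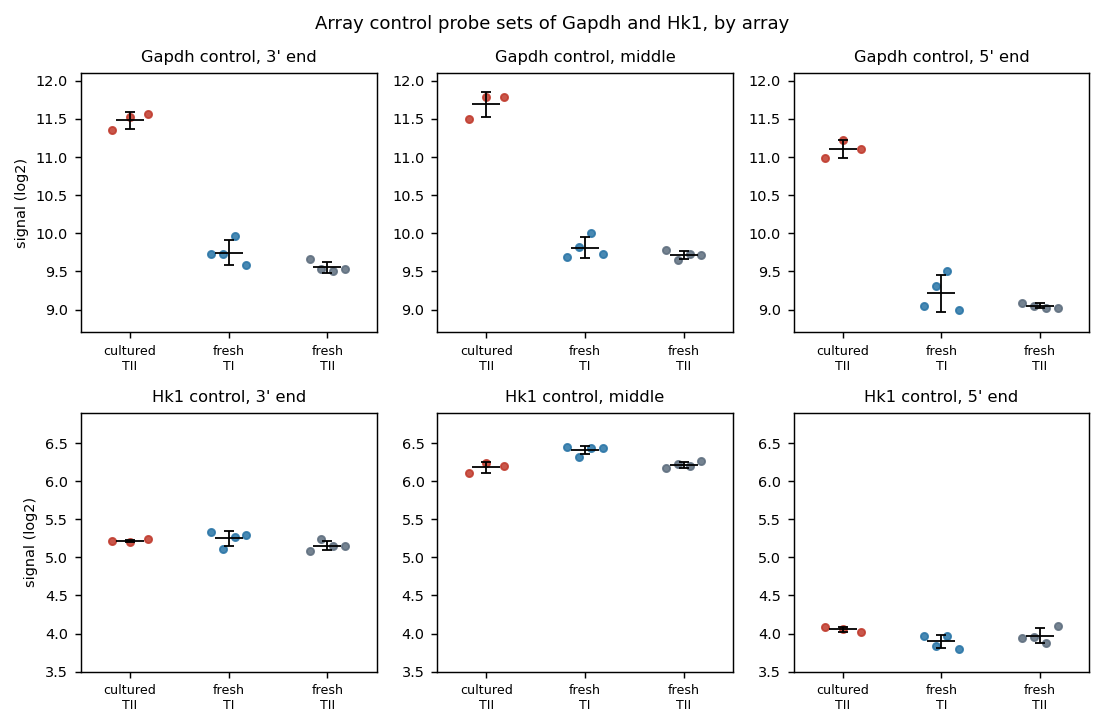
Log2 signal of the control probe sets of Gapdh (top) and Hk1 (bottom) at the 3′ end, middle and 5′ end of each transcript; points are arrays and bars are the mean and SD, with 1 vertical scale per row. Gapdh was between 10.99 and 11.79 on the cultured arrays and at or under 9.999 on all fresh arrays. The Hk1 groups lie close together in each panel, with the widest gap between group means at the middle position.

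Slc2a1, the transporter through which glucose enters, was near its fresh TII level in culture. On S68135_s_at the cultured TII arrays gave 7.71, 7.47 and 8.04, the fresh TI arrays 5.26, 5.46, 5.43 and 4.77, and the fresh TII arrays 7.62, 7.70, 7.41 and 7.49. Cultured and fresh TII arrays overlapped. Their difference was 0.18 ± 0.17 (adjusted p = 0.479), with a 95% confidence interval from -0.18 to 0.54. On M13979_at the cultured TII arrays gave 7.02, 7.18 and 7.41 and the fresh TII arrays 6.81 to 6.94. There the groups did not overlap, and the rise of 0.31 ± 0.09 was called (adjusted p = 0.012). Without cultured replicate 3 it was 0.21 and not called (adjusted p = 0.06).

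The hexokinases, which phosphorylate glucose, gave differences of at most 0.28 between cultured and fresh TII cells, with 1 call that was not stable. Hk2, the inducible isoform, gave 6.65, 6.89 and 6.82 on M68971_at in cultured TII and 6.51, 6.66, 6.48 and 6.57 in fresh TII cells. The ranges overlapped by 1 array a side. Its rise of 0.23 ± 0.08 was called narrowly (adjusted p = 0.0491), and only 4 of the 11 fits that each left out 1 array kept that call. On D26393exon_s_at the cultured TII arrays gave 6.27, 6.70 and 7.17 and the fresh TII arrays 6.33 to 6.66, a difference of 0.28 ± 0.16 (adjusted p = 0.219). Leaving out 1 array moved that difference between 0.054 and 0.505, and it was called without cultured replicate 1 (adjusted p = 0.00988). Hk1, the housekeeping isoform, differed by 0.02 ± 0.07 on U27319exon_at and by -0.17 ± 0.10 on rc_AI012593_at (adjusted p = 0.885 and 0.252). Its 3 control probe sets differed by 0.06, -0.03 and 0.09, all with overlap.

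Some RNA quality measures and cell type markers moved with culture, and their part in these results was not tested. For the beta-actin control, signal at the 3′ end less that at the 5′ end (log2) was -0.33 to -0.08 on cultured TII, 0.21 to 0.43 on fresh TI and 0.32 to 0.43 on fresh TII arrays. For Gapdh it was 0.30 to 0.45, 0.41 to 0.69 and 0.47 to 0.57 in the same groups. For Hk1 it was 1.13 to 1.21, 1.27 to 1.49 and 1.04 to 1.28, with cultured and fresh TII arrays overlapping. Summed linear signal of the 13 measured TII markers was 3859 to 4294 on cultured TII and 38406 to 40694 on fresh TII arrays. Of these genes 1 was higher and 11 were lower. For 9 TI markers the sum was 3273 to 4426 and 1958 to 2099 in the same groups (6 higher, 0 lower). For the 12 measured macrophage and leukocyte markers it was 678 to 1074 and 2579 to 2971 (2 higher, 2 lower). For 7 airway markers it was 593 to 850 on cultured TII and 4409 to 5255 on fresh TII arrays (0 higher, 4 lower). Over 15 fibroblast and smooth muscle markers it was 2406 to 3102 on cultured TII and 868 to 1119 on fresh TII arrays (3 higher, 1 lower). For 4 red blood cell markers it was 346 to 376 on cultured TII and 813 to 2155 on fresh TII arrays (0 higher, 2 lower). For 8 endothelial markers it was 574 to 599 on cultured TII and 457 to 514 on fresh TII arrays (1 higher, 1 lower). The 1 that was higher was endothelin Edn1, which is also counted among the hypoxia targets below. Its log2 signal was 7.66 to 7.82 on cultured TII and 5.82 to 6.67 on fresh TII arrays. The sum without Edn1 was not taken. Leaving out each array in turn, 8 to 11 of the 15 probe sets were called, all higher. All probe sets of Aldoa, Pgam1 and Pfkp and the brighter 2 of Pgk1, 8 in all, were called in each of the 11 fits, Slc2a1 M13979_at in 10, Hk2 M68971_at in 4 and Hk2 D26393exon_s_at in 1.

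Promoters are shown because hypoxia-inducible factor 1 (HIF-1), known from human and mouse cells to act on many glycolytic genes, binds sites with the core ACGTG. The windows are the 250 bases before the annotated gene start (RefSeq, build GRCr8), 5′ to 3′ on the gene's strand, with ACGTG or its reverse CACGT in capitals. Aldoa and Pgam1 rose in culture and Gapdh signal was higher, Slc2a1 was low in fresh TI cells, and Pfkp rose and has no such core in this window. Aldoa has 3 windows, of which the 1 that holds the core is printed. The printed windows were chosen after their matches were seen. The core was also in 1 of 2 windows of Hk1, which was not called in culture, and it was absent from the windows of Hk2, which was called higher on 1 probe set, and of Tpi1.
Aldoa, chr1:190836778-190837027, minus strand: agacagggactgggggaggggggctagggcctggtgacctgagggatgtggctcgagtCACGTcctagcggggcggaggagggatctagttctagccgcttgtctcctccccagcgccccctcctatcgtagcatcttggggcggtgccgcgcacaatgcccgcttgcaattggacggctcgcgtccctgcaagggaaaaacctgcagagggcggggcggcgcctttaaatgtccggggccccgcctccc
Gapdh, chr4:159652468-159652717, minus strand: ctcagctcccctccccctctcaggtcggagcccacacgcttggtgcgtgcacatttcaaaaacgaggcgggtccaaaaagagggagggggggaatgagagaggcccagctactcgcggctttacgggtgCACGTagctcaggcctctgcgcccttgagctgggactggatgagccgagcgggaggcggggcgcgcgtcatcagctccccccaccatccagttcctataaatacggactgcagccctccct
Pgam1, chr1:250672902-250673151, plus strand: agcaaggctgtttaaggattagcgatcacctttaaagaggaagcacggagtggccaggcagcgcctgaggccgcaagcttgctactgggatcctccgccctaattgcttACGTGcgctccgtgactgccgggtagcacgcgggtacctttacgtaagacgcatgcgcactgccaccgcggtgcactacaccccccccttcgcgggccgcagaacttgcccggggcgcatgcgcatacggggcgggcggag
Slc2a1, chr5:138002272-138002521, plus strand: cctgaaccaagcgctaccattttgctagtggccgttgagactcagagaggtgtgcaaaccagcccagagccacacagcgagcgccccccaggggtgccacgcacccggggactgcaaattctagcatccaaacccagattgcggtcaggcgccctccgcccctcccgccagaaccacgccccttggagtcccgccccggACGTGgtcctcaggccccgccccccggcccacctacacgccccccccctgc
Pfkp, chr17:68639563-68639812, plus strand: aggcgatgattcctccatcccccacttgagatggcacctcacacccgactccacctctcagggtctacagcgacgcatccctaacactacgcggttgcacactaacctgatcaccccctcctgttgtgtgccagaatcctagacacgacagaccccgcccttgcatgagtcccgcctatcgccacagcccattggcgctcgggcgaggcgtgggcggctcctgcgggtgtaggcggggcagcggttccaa

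Windows were found for 9 of the 10 genes, all but Pgk1, and numbered 12. The core ACGTG, on either strand, was in 6 of these 12, against 16.6% of all 33469 windows of that length. The matches began 192 bases before the start for Aldoa, 121 for Gapdh, 245 for Hk1, 141 for Pgam1 and 51 for Slc2a1, and at 87, 86 and 73 bases for Ldha, where the first 2 overlap. One window, that of Ldha, held the E-box CACGTG, which contains the ACGTG core, against 5.59% of all. The GC box GGGCGG, on either strand, was in 7 of 12 against 30.5%, and the TATA box TATAAA, on either strand, in 1 of 12 (Gapdh) against 12.9%. A match describes these letters and does not show a bound site.

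Fresh TI cells were then set against fresh TII cells, which asks how the pathway differs between the cell types as isolated. Slc2a1 was lower in TI cells on both probe sets, Hk2 on 1 of its 2, and Aldoa on its only probe set. Pgam1, Pfkp and Hk1 were each higher on 1 probe set and uncalled on the rest. Of the 15 probe sets 3 were higher and 4 were lower, against 34.3% of all probe sets higher, 20.4% lower and 54.7% in either direction. At least 2-fold lower were 2 of the 15, against 5.22% of all. By gene, 2 of 7 were higher and 2 lower, against 33.0% and 21.2% of all genes (54.2% together). The arrays did not overlap for 7 of 15, against 50.7% of all. The shares called in either direction and without overlap were near the background, and the share called higher was below it. The split by direction depended on the setting. After median centring 1 probe set was higher and 5 lower. With array weights, or with only these groups fitted, 5 were higher and 4 lower. Leaving out single arrays gave 1 higher and 4 lower without fresh TI replicate 1 or fresh TII replicate 4, and 5 higher and 4 lower without cultured replicate 1 or 3. The median over the 15 was -0.03 and over all probe sets 0.125.

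Slc2a1 showed the largest difference of the 7 tested genes. Its fresh TI values on S68135_s_at, given above, were all below the lowest fresh TII array, and fresh TI replicate 4 was the lowest at 4.77. The difference was -2.33 ± 0.15, a 5.02-fold lower signal (adjusted p = 8.89e-08). On M13979_at fresh TI arrays gave 6.24, 6.27, 6.25 and 6.27 and fresh TII arrays 6.81, 6.94, 6.87 and 6.94. The groups were again apart, by -0.64 ± 0.08, or 1.55-fold (adjusted p = 3.34e-05), so the probe sets pointed the same way with different sizes.

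Hk2 depended on the probe set. On D26393exon_s_at fresh TI arrays gave 5.33, 5.25, 5.25 and 5.28 and fresh TII arrays 6.33, 6.34, 6.66 and 6.40, with no overlap. That difference was -1.16 ± 0.15, or 2.23-fold lower (adjusted p = 4.29e-05). On M68971_at fresh TI arrays gave 6.58, 6.68, 6.59 and 6.43 and fresh TII arrays 6.48 to 6.66, a difference of 0.01 ± 0.08 (adjusted p = 0.887). The sources used here do not say which transcripts each probe set reads.

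Aldoa was lower in fresh TI cells by a log2 difference of -0.58 ± 0.09, a 1.5-fold lower signal (adjusted p = 0.000243). Pgam1 was higher on its brightest probe set, by 0.38 ± 0.06 (adjusted p = 0.000289), but stood at -0.38 ± 0.15 and -0.22 ± 0.11 on rc_AI169417_s_at and S63233_g_at, neither of them called (adjusted p = 0.051 and 0.0982). The rc_AI169417_s_at probe set was called lower after median centring (-0.426), with robust eBayes and the replicate block, and without fresh TI replicate 2 (-0.515) or 3 (-0.456), so that in these fits Pgam1 probe sets were called in opposite directions. Without fresh TI replicate 3, S63233_g_at was called lower too (-0.307). Pfkp was higher by 0.47 ± 0.18 on L25387_at (adjusted p = 0.0414), a call that ended under each of the 3 other scalings and was kept in 4 of 11 fits without 1 array. On L25387_g_at it stood at 0.70 ± 0.30, uncalled (adjusted p = 0.0617), and was called in 3 of those 11 fits. Hk1 was higher by 0.18 ± 0.06 on U27319exon_at (adjusted p = 0.0288), where 7 of 11 fits without 1 array kept the call, and stood at -0.08 ± 0.09 on rc_AI012593_at. The Hk1 call also ended after median centring (0.137, adjusted p = 0.0754) and as the mean of its probe sets (0.052, adjusted p = 0.503). No Pgk1 probe set was called, with values of 0.29 on M31788_g_at, 0.17 on M31788_at and -0.03 on rc_AA892797_at. M31788_g_at (adjusted p = 0.0537) was called higher after quantile normalization (0.414), after matching the arrays' spread (0.365), with array weights (0.391), with only these groups fitted and in 3 of 11 fits without 1 array, and M31788_at without fresh TI replicate 3 (0.261). On Pfkp L25387_g_at, Pgk1 rc_AA892797_at and the 2 dimmer Pgam1 probe sets, fresh TI replicates 1 and 4 were below replicates 2 and 3. The same held for Slc2a1 S68135_s_at, Aldoa, Pgk1 M31788_g_at, Pfkp L25387_at and Hk2 M68971_at, and not for the other tested probe sets. Signal SD over the whole array was 1.803 and 1.767 on fresh TI replicates 1 and 4. It was 1.853 and 1.843 on replicates 2 and 3.

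Marker levels differed between the fresh isolates too, and their part was not tested. The summed linear signal of 13 TII markers was 6495 to 17299 on fresh TI and 38406 to 40694 on fresh TII arrays, and that of 9 TI markers 11520 to 12380 on fresh TI and 1958 to 2099 on fresh TII arrays. The fresh TI ranges of the other lists, to be read against the fresh TII ranges above, were 1043 to 1668 for macrophage and leukocyte markers (4 of 12 higher, 2 lower) and 704 to 743 for airway markers (2 of 7 higher, 4 lower). They were 1902 to 3455 for fibroblast and smooth muscle markers (8 of 15 higher, 0 lower) and 552 to 760 for red blood cell markers (2 of 4 higher, 2 lower). For endothelial markers the range was 434 to 603 (3 of 8 higher, and 1, Edn1, lower).

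Cultured TII cells were last set against fresh TI cells, which asks how close the cultured cells were to TI cells of the lung in this pathway. The cultured cells were higher in 6 of 7 genes, all but Hk1, and lower in 0 (25.8% and 34.2% of all genes, 60.0% together). By probe set 12 of 15 were higher and 0 lower, against 24.2% of all probe sets higher, 35.7% lower and 59.9% in either direction. At least 2-fold higher were 9 of the 15, against 6.53% of all, and 12 did not overlap, against 57.3% of all. The median over the 15 was 1.43 and over all probe sets -0.13. This comparison and the others share arrays, so the 3 are not independent. Marker levels also differed, and their part was not tested. The summed signal of TI markers was 3273 to 4426 on cultured TII and 11520 to 12380 on fresh TI arrays (0 of 9 genes higher, 8 lower), and that of TII markers 3859 to 4294 on cultured TII and 6495 to 17299 on fresh TI arrays (3 of 13 higher, 9 lower). Of the lists whose sums are given above, 3 of 12 macrophage and leukocyte markers were higher and 5 lower in cultured cells. Of 15 fibroblast and smooth muscle markers 4 were higher and 6 lower, and of 7 airway markers 1 was higher and 4 lower. Of 8 endothelial markers 1, Edn1, was higher and 5 were lower. Of 4 red blood cell markers 0 were higher and 4 lower.

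The differences were 2.51 ± 0.17 for Slc2a1 on S68135_s_at, 5.69-fold (adjusted p = 1.15e-07), and 0.95 ± 0.09 on M13979_at. Aldoa was higher by 2.46 ± 0.10, or 5.48-fold (adjusted p = 1.39e-09). Pgam1 was higher by 1.37 to 2.57 on its 3 probe sets, and Pgk1 by 1.43 and 1.59 on its brighter 2. Pfkp was higher by 1.54 ± 0.32 on L25387_g_at (adjusted p = 0.00135) and by 0.53 ± 0.19 on L25387_at (adjusted p = 0.0305; kept in 8 of 11 fits without 1 array, and 0.21 and not called without cultured replicate 3). Hk2 was higher by 1.44 ± 0.16 on D26393exon_s_at and by 0.22 ± 0.08 on M68971_at (adjusted p = 1.18e-05 and 0.0388). The M68971_at call was kept in 5 of 11 fits without 1 array. For Hk1 the values were -0.16 ± 0.07 and -0.09 ± 0.10 (adjusted p = 0.0558 and 0.451). The first, on U27319exon_at, was called lower after quantile normalization (-0.303), after matching the arrays' spread (-0.248), without probe sets below the median and without fresh TI replicate 3 (-0.193). The order of the group means was therefore cultured TII, fresh TII, fresh TI for Aldoa, with each neighbour called apart. For Slc2a1 it was the same order on both probe sets, with the upper neighbours called apart on M13979_at only, and there not without cultured replicate 3.

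Within an array, a signal ratio between paralogues does not depend on the array's overall scale, although its level also carries the brightness of each probe set and is no ratio of transcript amounts. The log2 ratio of Pfkp to the liver-type Pfkl was 0.05 ± 0.45 in cultured TII (SD, n = 3), -0.96 ± 0.57 in fresh TI (n = 4) and -1.83 ± 0.26 in fresh TII cells (n = 4). The changes were 1.88 for cultured against fresh TII, 1.02 for cultured TII against fresh TI and 0.87 for fresh TI against fresh TII. For Hk2 to Hk1 the changes were 0.22, 0.38 and -0.17. In exact two-sided permutation tests the adjusted p over these 6 tests was 0.0857 for each. The smallest p the design allows is 0.0571 for 3 against 4 arrays and 0.0286 for 4 against 4, and both ratios stood apart without overlap in both comparisons with cultured cells.

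The rest of the pathway was read from a list of other glucose carriers and glycolytic enzymes, 16 of 24 measured. In culture 3 rose against fresh TII cells and 1 fell (20.5% and 14.0% of all genes), with a list median of -0.01. The 3 were enolase Eno1 by 1.45 ± 0.13, the muscle-type pyruvate kinase Pkm by 1.35 ± 0.12 and Pfkl by 0.36 ± 0.12, and the regulatory enzyme Pfkfb2 fell by 0.38 ± 0.12. Eno1, which makes phosphoenolpyruvate, gave 10.44, 10.68 and 10.62 in cultured TII, 8.74, 9.03, 9.06 and 8.49 in fresh TI, and 9.26, 9.13, 9.05 and 9.06 in fresh TII cells. Pkm, which ends the pathway, gave 9.89, 10.36 and 10.42 in cultured TII, 9.13, 9.17, 9.28 and 8.94 in fresh TI, and 8.89, 8.92, 8.86 and 8.82 in fresh TII cells. Cultured arrays were above every fresh array for both enzymes.

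The other 12 genes of the list were not called in culture against fresh TII, with values from -0.23 to 0.10 on their brightest probe sets. In fresh TI against fresh TII cells 8 of the 16 were higher and 0 lower (33.0% and 21.2% of all genes), with a list median of 0.21 against 0.11 for all genes. The 4 that differed most were the insulin-regulated carrier Slc2a4 at 0.40 ± 0.10, muscle enolase Eno3 at 0.34 ± 0.11, the liver pyruvate kinase Pklr at 0.30 ± 0.09 and muscle phosphofructokinase Pfkm at 0.28 ± 0.07. Eno3 and Pklr were dim, with means of 3.625 and 4.12 in fresh TI and 3.29 and 3.82 in fresh TII cells. Signals spread less on fresh TI arrays (SD 1.77 to 1.85) than on fresh TII arrays (1.92 to 1.95). No test was made of the part of this spread in these calls. The list was also refitted with the arrays' spread matched, and those counts are not given here. With median centring, which leaves the spread unchanged, 5 of the 16 were higher. In cultured TII against fresh TI cells 3 were higher, Eno1 by 1.75 ± 0.13, Pkm by 1.09 ± 0.12 and Pfkl by 0.53 ± 0.12, and 8 were lower, Pklr among them at -0.53 ± 0.10 (25.8% and 34.2% of all genes).

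**Figure D4:**
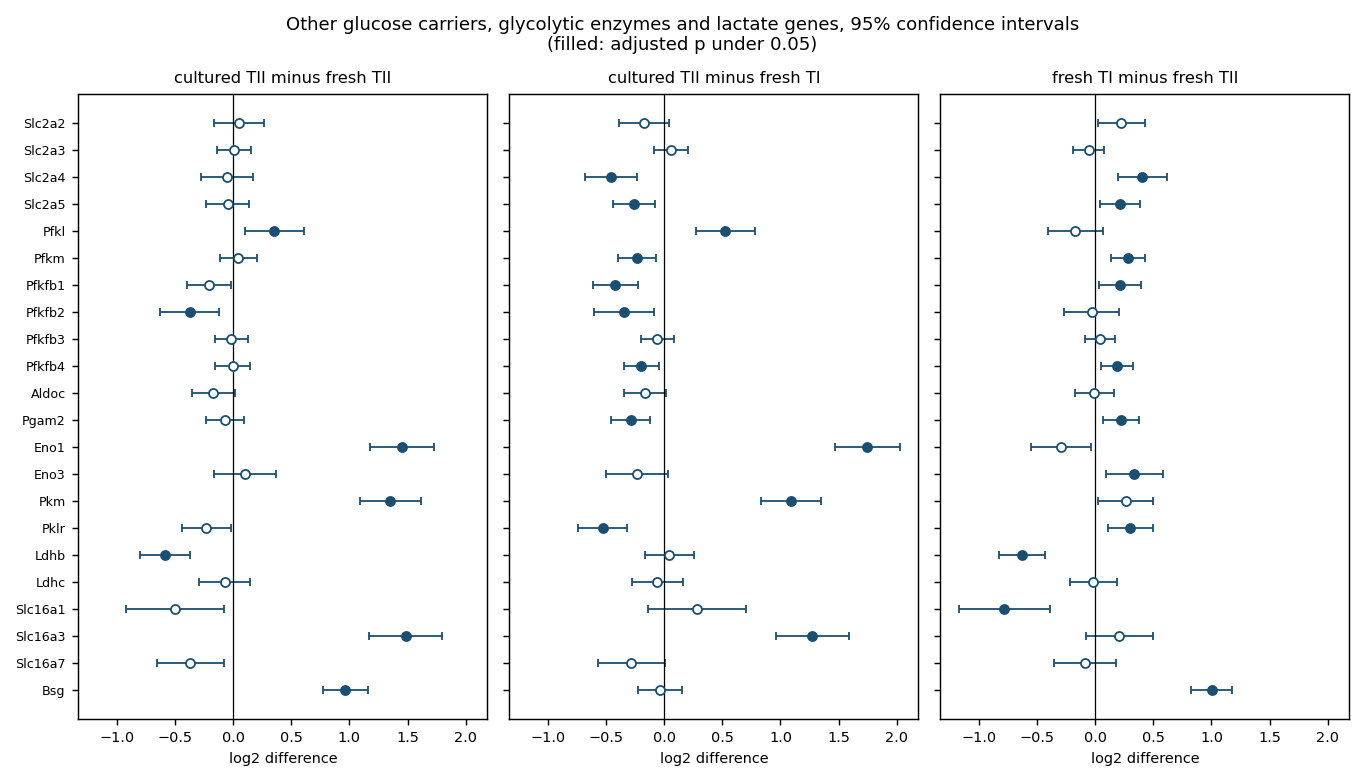
Log2 differences of the other measured glucose carriers, glycolytic enzymes and lactate genes (brightest probe set of each) in the 3 comparisons; bars are 95% confidence intervals and filled points have an adjusted p under 0.05. Eno1, Pkm and the lactate exporter Slc16a3 stand between 1.35 and 1.48 above fresh TII in culture, and Bsg at 0.97; Ldhb is the lowest of those called there, at -0.59.

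Lactate handling was measured by 6 of 6 listed genes. Against fresh TII cells, culture brought 2 up and 1 down (20.5% and 14.0% of all genes): Slc16a3 (MCT4, a lactate exporter) rose by 1.48 ± 0.15, its chaperone basigin (Bsg) rose by 0.97 ± 0.09, and Ldhb, the heart-type lactate dehydrogenase subunit, fell by 0.59 ± 0.10. Slc16a3 gave 7.31, 7.78 and 8.01 in cultured TII, 6.29, 6.54, 6.43 and 6.44 in fresh TI, and 6.06, 6.40, 6.07 and 6.34 in fresh TII cells, with the cultured arrays clear of the rest. Slc16a1 in cultured against fresh TII stood at -0.498 ± 0.195 on its brightest probe set, uncalled (adjusted p = 0.0686). Its probe set D63834_at was called lower, at -0.66 ± 0.18 (adjusted p = 0.0129). In fresh TI against fresh TII cells Bsg was higher by 1.003 ± 0.08. Slc16a1 and Ldhb were lower there, by log2 differences of -0.78 ± 0.18 and -0.63 ± 0.09. In cultured TII against fresh TI only Slc16a3 was called, at 1.28 ± 0.15.

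Entry of pyruvate into mitochondria showed no common direction in culture, where 3 of 11 measured genes rose and 3 fell against fresh TII cells (20.5% and 14.0% of all genes). The pyruvate dehydrogenase phosphatase Pdp1 rose by 0.74 ± 0.20 and the dehydrogenase subunit Dlat by 0.61 ± 0.09. The phosphatase Pdp2 fell by 1.25 ± 0.09 and the inhibitory kinase Pdk4 by 0.86 ± 0.23. These counts and values are of the brightest probe sets. Dimmer ones gave 0.55 and 1.53 for Dlat, 1.09 for Pdp1 and -1.62 for Pdp2. Pdha1 was uncalled on its brightest (0.19 ± 0.10) and called higher on Z12158cds_at (0.65 ± 0.13, adjusted p = 0.00177). In fresh TI against fresh TII cells 8 of 11 were lower and 1 higher, against 21.2% and 33.0% of all genes. Pdp2 stood at -1.11 ± 0.08, Pdk4 at -0.95 ± 0.21 and the mitochondrial pyruvate carrier Mpc1 at -0.85 ± 0.12, and Pdha1 was higher by 0.98 ± 0.09. This list had a median of -0.47, all genes 0.11. In cultured TII against fresh TI cells 7 of 11 were higher and 2 lower (25.8% and 34.2% of all genes), led by Pdp1 at 1.20 ± 0.20 and Mpc1 at 1.19 ± 0.13.

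HIF-1 pathway genes and hypoxia targets, of which 14 of 26 were measured, went both ways. In culture 8 rose and 2 fell against fresh TII cells, against 20.5% and 14.0% of all genes. The transferrin receptor Tfrc rose by 1.63 ± 0.21 and endothelin Edn1 by 1.49 ± 0.19, while adrenomedullin Adm fell by 2.26 ± 0.20 and Igfbp3 by 1.51 ± 0.13. In fresh TI against fresh TII cells 4 were higher and 6 lower (33.0% and 21.2% of all genes). Adm stood at -2.33 ± 0.19, haem oxygenase Hmox1 at -2.13 ± 0.42 and Edn1 at -1.71 ± 0.18, and Vegfa was higher by 0.97 ± 0.07 on its brightest probe set and by up to 2.75 on the others. In cultured TII against fresh TI 4 were higher and 3 lower (25.8% and 34.2% of all genes), with Hmox1 at 3.40 ± 0.45, Edn1 at 3.20 ± 0.19, Tfrc at 2.23 ± 0.21 and the collagen hydroxylase P4ha1 at 1.87 ± 0.09. Calls in both directions were thus present in each of the 3 comparisons.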

How the data were processed

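The deposited table holds 1 log2 signal per probe set and array from rat expression arrays, as processed by the authors; the sources used here give no summarisation, background correction or normalization step. Base 2 was inferred from the range, 1.37 to 13.16. The values were used as deposited. Control probe sets were left out, and the other 8740 probe sets were all tested, dim ones included: 7006 annotated to 1 gene, 308 to several and 1426 to none. In R 4.3.3, limma 3.58.1 (lmFit, eBayes, two-sided) estimated 1 mean per group from the 11 arrays together. Benjamini-Hochberg adjustment ran over all tested probe sets of a comparison, with calls at 0.05. The brightest probe set stood for a gene. Paralogue ratios were tested by exact permutation (scipy 1.17.1); the ratio of Ldha to Ldhb was left out because Ldha had no probe set of its own. The fit was tested on simulated data.

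The members, the gene lists and the naming rule were chosen with earlier results of these data known. The rule named all members and, per other list and comparison, up to 4 called genes with the greatest absolute difference. It also named list genes whose probe sets were called in opposite directions, and the 5 genes nearest in profile. Groups came from the array titles and descriptions, because the source field names TI cells for every array. The number of arrays, 3 or 4 per group, limits the precision. Alternatives were other scalings, filters on dim signal, variance models, weights per array, a block for replicate number, a stricter threshold, the mean of a gene's probe sets and leaving out each array.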

Additional observations from a re-analysis of the deposited data

Results flagged for a closer look

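A single array lay far from the other 3 of its group in 4 of the 48 sets of 4 arrays examined (24 member probe sets in 2 groups); chance alone gives about 1 in 20. The measure is the gap to the nearest array as a share of the group's range. The middle-of-transcript Hk1 control was lowest in fresh TI replicate 2 (0.856) and the 3′ Gapdh control of opposite orientation highest in fresh TI replicate 4 (0.85). The 3′ Gapdh control was highest in fresh TII replicate 1 (0.847), and Pgam1 S63233_at was lowest in fresh TII replicate 4 (0.916), where the whole range was only from 9.04 to 9.12.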

How the results depend on the processing

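The counts of members called in either direction stayed within 1.5 times their value under all 135 alternative fits of the 6 counts. The split by direction did not for fresh TI against fresh TII, where 1 to 5 probe sets and 1 to 3 genes were called higher, against 3 and 2 as reported, and 4 to 6 probe sets and 2 to 3 genes lower, against 4 and 2. Leaving out each array, 4 to 5 of 7 genes were called for cultured against fresh TII, 5 to 6 for cultured TII against fresh TI and 3 to 5 for fresh TI against fresh TII. The calls of Slc2a1, Aldoa and Pgam1 (S63233_at) in fresh TI against fresh TII, and of Aldoa, Pgk1, Pgam1 and Pfkp (brightest probe sets) in culture against either fresh group, held in all 11 of these fits. Among these values and the named list genes, the sign turned only where the value as reported was uncalled, Pgam1 and Gpd2 apart, and the cause was not tested. In fresh TI against fresh TII, Hk2 stood at -0.03 after median centring, -0.572 as the mean of its probe sets (called) and -0.022 to 0.06 without single arrays. Pgk1 stood at 0.138 after quantile normalization, 0.061 after matching the arrays' spread, 0.196 with array weights, 0.144 as the mean of its probe sets and -0.14 to 0.096 without single arrays. Pgk1 M31788_at stood at -0.068 after matching the spread. As means of their probe sets, Pgam1 stood at -0.074 and Gpd2 at -0.058, neither called. For cultured against fresh TII, Hk1 stood at -0.016 after quantile normalization, -0.001 after matching the spread and -0.073 as the mean. For cultured TII against fresh TI, Pgk1 M31788_at stood at 0.06, 0.185 and 0.009 after quantile normalization, matching the spread and array weights. The Hk2 rise in culture was not called after quantile normalization (0.21), matching the spread (0.22), an intensity trend (0.23), as the mean of its probe sets (0.26) or with the replicate block (0.21). Deviations from the group means correlated from -0.20 to 0.28 over 10 pairs of same-numbered arrays. Over 30 pairs of other-numbered arrays they correlated from -0.266 to 0.225. These overlapping ranges cannot decide whether a shared replicate number marks a shared source. With the replicate block 5, 4 and 5 genes were called for fresh TI against fresh TII, cultured against fresh TII and cultured TII against fresh TI. Pfkp L25387_g_at in fresh TI against fresh TII (0.70) was called with the block, with array weights (0.947), with only these groups fitted, as the mean of its probe sets (0.583), and without cultured replicate 1, cultured replicate 3 or fresh TI replicate 4 (0.941). For cultured TII against fresh TI, Hk2 M68971_at was not called after quantile normalization (0.168), after matching the spread (0.18), with the block (0.199) or with only these groups fitted (0.22), nor was Pfkp L25387_at with array weights (0.333) or with only these groups fitted (0.534). The paralogue ratios kept their signs in all 76 alternatives.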

Other observations

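Side branches of glucose metabolism differed by branch. Counts of called genes are to be read against 20.5% of all genes higher and 14.0% lower in culture against fresh TII, 33.0% and 21.2% in fresh TI against fresh TII, and 25.8% and 34.2% in cultured TII against fresh TI cells. For the pentose phosphate pathway 2 of 7 genes were measured. Transketolase Tkt was lower in fresh TI than in fresh TII cells, by a log2 difference of -1.02 ± 0.13, and higher in cultured TII than in fresh TI cells by 1.25 ± 0.14; transaldolase Taldo1 was higher in culture than in fresh TII cells by 0.90 ± 0.33 (adjusted p = 0.0491), a call lost in 8 of the 11 fits without 1 array, and than in fresh TI cells by 1.05 ± 0.33. Of 7 genes of the NADH shuttles, which carry reducing power from glycolysis into mitochondria, 4 rose and 0 fell in culture against fresh TII cells. They were Mdh2 by 0.73 ± 0.23, Got2 by 0.60 ± 0.15, Got1 by 0.59 ± 0.10 and Mdh1 by 0.50 ± 0.12. In cultured TII against fresh TI cells 5 were higher and 1 lower, and in fresh TI against fresh TII cells 2 were higher and 2 lower. Probe sets of Got2 and Gpd2 were called in opposite directions. In cultured TII against fresh TI cells Got2 gave 0.63 on M18467_at, 1.05 on rc_AA892012_g_at and -0.29 on rc_AA892012_at. The last was dim, with means of 3.58 and 3.87. Gpd2 gave -0.55 on its brightest probe set, 0.42 on X78593_at and 0.20, uncalled, on X78593_g_at. In fresh TI against fresh TII cells it gave 0.42 on the brightest, -0.32 on X78593_at and -0.28 on X78593_g_at, all called. Both X78593 probe sets were dim there, with means from 3.08 to 4.36.

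Of 10 glycogen genes 2 rose and 2 fell in culture, with glycogenin Gyg1 up by 0.89 ± 0.13 and glycogen phosphorylase Pygb down, by a log2 difference of -1.11 ± 0.10. In fresh TI against fresh TII cells 3 were higher and 3 lower, and the phosphorylase kinase subunit Phkg2 stood at -1.05 ± 0.06. Of 3 gluconeogenic genes 2 were higher and 1 lower in fresh TI than in fresh TII cells, with Fbp2 at -0.57 ± 0.08; in culture only Fbp2 was called, also lower, at -0.53 ± 0.09. Among 12 genes of insulin and growth factor input 2 rose and 5 fell in culture. Txnip, an inhibitor of glucose uptake whose transcript is known to respond to glucose, fell by 2.42 ± 0.30 in culture. It gave 7.10, 5.99 and 5.44 in cultured TII, 9.02, 9.67, 9.48 and 9.27 in fresh TI, and 8.36, 8.82, 8.38 and 8.82 in fresh TII cells. Myc stood at -1.11 ± 0.10 in culture and -2.54 ± 0.09 in fresh TI cells, each against fresh TII, and Akt1 rose by 0.79 ± 0.11 in culture.

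The mean centred profile of the 7 tested genes over the 11 arrays was 0.90 in cultured TII, -0.46 in fresh TI and -0.22 in fresh TII cells (log2). Among 4729 other genes the nearest by root mean square distance were Ywhag (0.114), Taf10 (0.119), Calr (0.119), Rab11a (0.130) and Atp6v1f (0.130), against a median distance of 0.648. Among the members themselves Pgk1 was nearest (0.236) and Slc2a1 farthest (0.901).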
